A study of Mus musculus with 6 samples.

Results

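The genes described here are 5 sensors of double-stranded RNA (Ifih1, Ddx58, Dhx58, Eif2ak2 and Tlr3) and 4 oligoadenylate synthetase genes (Oas1a, Oas2, Oas3 and Oasl2). Ddx58 is also named Rigi. They were taken as a fixed list of 9 symbols from the 17558 genes of the deposited table, after the transcripts of each NCBI gene had been summed. RNA was sequenced from C2C12, an immortalized mouse myoblast line that forms myotubes when growth serum is replaced by horse serum. All 6 libraries were made from cells harvested after 48 h in differentiation medium. The control cells (shScr, genotype given as WT) stably carried a scrambled, non-targeting short hairpin RNA. The other cells stably carried a hairpin against the Pkm1 isoform (shPkm1) or the Pkm2 isoform (shPkm2) of the pyruvate kinase gene Pkm. Each group has 2 libraries, every group therefore carries a hairpin, and the number of hairpin sequences or clones is not given in the sources used here. Nothing in the labels says that the libraries of a group came from separate cultures, so p-values measure the spread between these libraries, which may be technical.

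Long double-stranded RNA is rare in healthy cytoplasm and common during viral replication, and cells read it as a sign of infection. MDA5 (gene Ifih1) and RIG-I (Ddx58) are cytosolic helicases that bind double-stranded RNA and signal through the mitochondrial adaptor MAVS. LGP2 (Dhx58) is a related helicase without the signalling domains that modulates both. TLR3 (Tlr3) detects the same ligand in endosomes through the adaptor TICAM1, and the kinase PKR (Eif2ak2) responds by phosphorylating the translation factor eIF2alpha. Oligoadenylate synthetases bind double-stranded RNA and make short oligoadenylates, which act as second messengers of the antiviral response. Most of these genes are induced by type I interferon, so they are both sensors and targets of the same response.

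Depth and labels were examined first. Libraries held 18216896 to 19796036 estimated counts. The Pkm1 isoform stood at 546 and 589 TPM (expression scaled to transcript length and library total) in shScr, at 243 and 218 in shPkm1 and at 254 and 254 in shPkm2. The Pkm2 isoform stood at 1073 and 1517 TPM in shScr and at 2700 and 2630 in the libraries labelled shPkm2, and was therefore not reduced under the hairpin that the label names. Results of that group are given by its label. Markers of the labelled cell type were present: 9 myoblast and myotube genes, among them Myod1, Des and Myog, summed to 26804 and 21115 TPM in shScr. They summed to 11110 and 11954 TPM in shPkm1 and to 1281 and 1193 TPM in shPkm2. Acta1 made up the largest share of the sum in shScr (15317 and 10686 TPM). Des was at 2248 and 2322 TPM in shScr, 2028 and 2173 in shPkm1 and 757 and 681 in shPkm2, and Myf5 was higher in shPkm2 (59.4 and 54.1 TPM) than in shScr (11.6 and 13.4). Whether these differences have a part in the changes of the sensors was not tested.

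All 9 genes were lower in both Pkm hairpin groups than in the scrambled control. The sensors summed to 152 and 177 TPM in shScr, to 50.6 and 48.0 in shPkm1 and to 56.5 and 51.1 in shPkm2. The Oas genes summed to 182 and 288 TPM in shScr, to 26.4 and 23.2 in shPkm1 and to 27.9 and 28.1 in shPkm2. For every one of the 9 genes both shScr libraries lay above all 4 libraries of the Pkm hairpin groups in TPM, as was the case for 14.0% of all tested genes. In edgeR's quasi-likelihood test on all 12643 genes that passed the filter, 9 of 9 were called lower in each comparison, with Benjamini-Hochberg adjusted p between 3.35e-10 and 2.37e-05 in shPkm1 and between 1.21e-10 and 1.16e-05 in shPkm2. A call means an adjusted p under 0.05, and 31.4% of all tested genes were called lower in shPkm1 and 34.2% in shPkm2 (31.8% and 33.9% were called higher). A log2 fold change of -2 or less was called for 7 of the 9 genes in each comparison, against 3.38% of all tested genes in shPkm1 and 6.32% in shPkm2. The median log2 fold change of the 9 genes was -2.95 in shPkm1 and -3.12 in shPkm2, where that of all tested genes was 0.00 and 0.01. Both comparisons use the same 2 control libraries. In bulk RNA, fewer cells that express a gene and less of its RNA per cell cannot be told apart. All 9 genes passed the filter on low counts, with 27 to 5437 counts in each library.

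**Figure D1:**
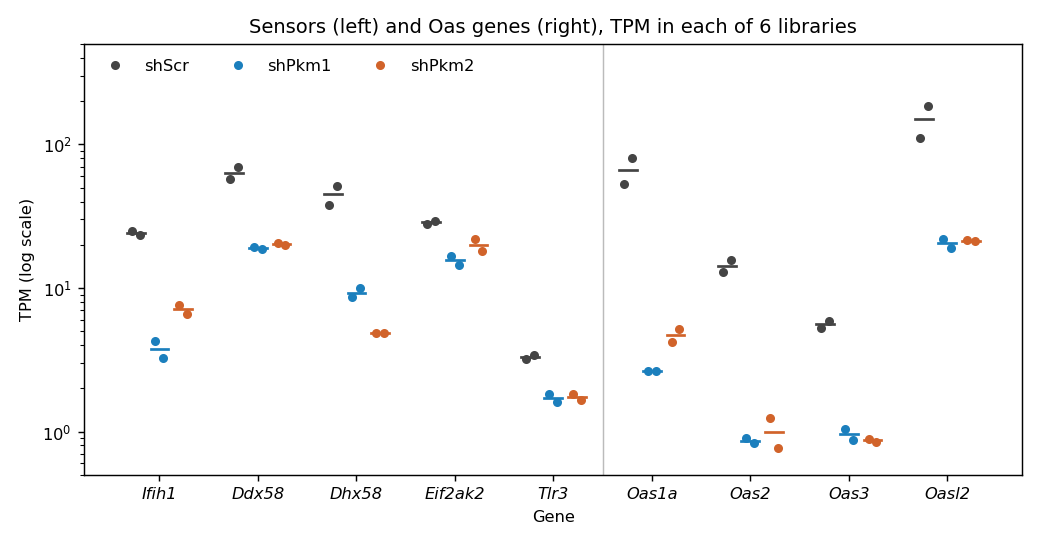
TPM of the 9 genes on a log axis, with 1 point per library, a bar at the group mean, and the groups in 3 colours. For each gene both shScr points lie above the 4 points of the Pkm hairpin groups, with Oas1a at a mean of 66.7 TPM against 2.63 and 4.67.

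The sequence around the starts of these genes was searched for the core of the interferon-stimulated response element, a site bound by interferon regulatory factors. Most of the 9 genes are induced by type I interferon, so matches do not bear on the falls seen here. RefSeq promoters of GRCm38.p6 (250 bases before to 50 after the annotated start) matched 7 of the 9 genes by symbol; Dhx58 and Oas2 are named only. The motif, GAAA, any 2 bases and GAAA again, was present on either strand in 5 of the 7 promoters and in 3.43% of all 32817 promoters of the table. The matches are shown with flanking bases, 5′ to 3′ along the gene's strand, with the motif in capitals; in Ddx58 it lies on the opposite strand.
Oas3 (chr5:120777715-120777744, minus strand): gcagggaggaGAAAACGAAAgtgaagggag
Ddx58 (chr4:40239804-40239833, minus strand): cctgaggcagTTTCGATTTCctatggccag
Eif2ak2 (chr17:78882535-78882564, minus strand): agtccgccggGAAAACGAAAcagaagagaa
Ifih1 (chr2:62646206-62646233, minus strand): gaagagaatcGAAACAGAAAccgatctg
Counted from the start used for each promoter, the motif begins at -75 in Oas3, at 3 in Ddx58, at 19 in Eif2ak2 and at 33 in Ifih1. In Oas3 that start lies inside the annotated gene: the 250 bases before it span 120777660 to 120777909, and the gene ends at 120777684. Oas1a, the gene with the largest fall in shPkm1, has overlapping matches at -20 and -14. Its 250 bases before the start used (chr5:120907526-120907775, minus strand) are given whole, with both matches in capitals. The bases up to 120907544 lie inside the annotated gene, with the whole match at -14 and part of that at -20.
Oas1a: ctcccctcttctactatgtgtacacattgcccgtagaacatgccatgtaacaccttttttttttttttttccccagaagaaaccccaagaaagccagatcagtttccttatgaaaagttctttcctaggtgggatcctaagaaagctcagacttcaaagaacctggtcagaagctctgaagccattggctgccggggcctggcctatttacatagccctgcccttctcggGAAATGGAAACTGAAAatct
Tlr3 and Oasl2 have no match to these letters in the window. The 250 bases before the Tlr3 start that were searched (chr8:45410381-45410630) lie inside the annotated gene, so sequence before its outermost 5′ end was not searched. The second motif searched, TTCNNNGAA, the core of the interferon-gamma-activated site, was found in Eif2ak2 and Oas1a and in 8.29% of all promoters. A match is a description of the sequence and not evidence that a factor binds there.

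Gene positions are those of GRCm38.p6. Ifih1 (NCBI gene 71586, chr2:62595618-62646255), which encodes MDA5, stood at 24.9 and 23.3 TPM in shScr, at 4.26 and 3.26 in shPkm1 and at 7.62 and 6.62 in shPkm2. The groups did not overlap, and shPkm1 was the lowest. The log2 fold change was -3.18 in shPkm1 (SE 0.134, adjusted p 7.73e-10) and -2.25 in shPkm2 (SE 0.124, adjusted p 3.70e-09). The fitted level was 9.07-fold lower in shPkm1 and 4.76-fold lower in shPkm2. With limma on log2(TPM + 1) the log2 fold changes were smaller, at -2.41 and -1.63, both called.

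Ddx58 (gene 230073, chr4:40203777-40239825), which encodes RIG-I, was the most abundant of the sensors per length in every group except that Eif2ak2 overlapped it in shPkm2. It stood at 57.8 and 69.4 TPM in shScr, at 19.2 and 18.8 in shPkm1 and at 20.4 and 19.8 in shPkm2. The Pkm hairpin groups were close to each other, and the log2 fold changes were -2.13 (SE 0.0979, adjusted p 1.70e-09) and -2.11 (SE 0.0976, adjusted p 6.75e-10). The fitted level left was 22.8% and 23.1% of the control.

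Dhx58 (gene 80861, chr11:100694884-100704271), which encodes LGP2, was the sensor with the deepest fall in shPkm2. It was measured at 38.1 and 51.4 TPM in shScr, 8.66 and 9.92 in shPkm1 and 4.87 and 4.82 in shPkm2. All 3 groups stood apart, in the order shScr, shPkm1, shPkm2. Dhx58 fell to a log2 fold change of -2.64 in shPkm1 (SE 0.131, adjusted p 3.48e-09) and -3.65 in shPkm2 (SE 0.141, adjusted p 1.21e-10). With limma on log2(TPM + 1) these values were -2.14 and -2.95, both called.

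Eif2ak2 (gene 19106, chr17:78850504-78882572), which encodes PKR, had the smallest fall of the 9 genes in both comparisons, close to that of Tlr3 in shPkm1. It stood at 28.0 and 29.3 TPM in shScr, at 16.6 and 14.5 in shPkm1 and at 21.8 and 18.2 in shPkm2. The log2 fold change was -1.30 in shPkm1 (SE 0.107, adjusted p 3.63e-07) and -0.98 in shPkm2 (SE 0.105, adjusted p 2.39e-06). With limma on log2(TPM + 1) these values were -0.84 and -0.50, both called, on a scale where the median of all tested genes was 0.31 and 0.36.

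Tlr3 (gene 142980, chr8:45395665-45411075), the endosomal sensor, was the least abundant of the 9 genes in shScr. Its levels were 3.18 and 3.39 TPM in shScr, 1.84 and 1.60 in shPkm1 and 1.83 and 1.65 in shPkm2. It had 79 to 177 counts per library, and the ranges of the Pkm hairpin groups overlapped. The log2 fold change was -1.31 in shPkm1 (SE 0.172, adjusted p 2.37e-05) and -1.35 in shPkm2 (SE 0.171, adjusted p 1.16e-05). With limma on log2(TPM + 1) they were -0.66 and -0.65 and still called, on a scale where the median of all tested genes was 0.31 and 0.36. The added 1 also understates changes of low genes, and with log2(TPM + 0.1) the value in shPkm1 was -0.90.

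The fitted falls of the Oas genes and the sensors overlapped in size: Ifih1 in shPkm1 (-3.18) and Dhx58 in shPkm2 (-3.65) lay beyond Oas3 (-2.95 and -3.12). Oas1a, Oas2 and Oas3 lie on the minus strand of chromosome 5 within 1 cluster. Oas2 spans 120730333 to 120749886, Oas3 120753098 to 120777684 and Oas1a 120896256 to 120907544, while Oasl2 lies apart at 114896926 to 114912245 on the plus strand.

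Oas1a (gene 246730), a synthetase of the small type, stood at 52.8 and 80.7 TPM in shScr, at 2.64 and 2.63 in shPkm1 and at 4.18 and 5.17 in shPkm2. Its log2 fold change was -5.06 in shPkm1 (SE 0.197, adjusted p 3.35e-10) and -4.28 in shPkm2 (SE 0.180, adjusted p 2.81e-10). The fitted level left was 2.99% and 5.15% of the control. With limma on log2(TPM + 1) the log2 fold changes were -4.19 and -3.55, both called. Counts of Oas1a are uncertain because it has close copies: 40.9% of the 100-base windows of its longest GENCODE M21 transcript also occur in Oas1g. For the other 8 genes at most 1.99% of such windows occur in another gene. Oas1g itself stood at 7.79 and 10.8 TPM in shScr, 0.480 and 0.210 in shPkm1 and 0.610 and 0.230 in shPkm2.

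Oas2 (gene 246728) and Oas3 (gene 246727) encode synthetases with repeated synthetase domains. Oas2 stood at 12.9 and 15.6 TPM in shScr, at 0.900 and 0.830 in shPkm1 and at 1.24 and 0.770 in shPkm2. Its log2 fold change was -4.67 in shPkm1 (SE 0.185, adjusted p 3.98e-10) and -4.29 in shPkm2 (SE 0.175, adjusted p 2.13e-10). Oas3 stood at 5.29 and 5.89 TPM in shScr, at 1.04 and 0.870 in shPkm1 and at 0.890 and 0.850 in shPkm2. The fall of this neighbour was smaller, with log2 fold changes of -2.95 (SE 0.169, adjusted p 1.47e-08) and -3.12 (SE 0.170, adjusted p 3.30e-09). The ratio of Oas2 to Oas3 in TPM was 2.44 and 2.65 in the shScr libraries, 0.865 and 0.954 in shPkm1 and 1.39 and 0.906 in shPkm2. Oas2 was thus clearly above Oas3 per length in the control libraries, whereas in shPkm1 and in shPkm2 their ranges overlapped. With limma on log2(TPM + 1) the log2 fold changes in shPkm1 were -3.03 for Oas2 and -1.75 for Oas3, and in shPkm2 -2.93 and -1.82, all called.

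Oasl2 (gene 23962), whose protein joins a synthetase domain to ubiquitin-like domains, was the most abundant of the 9 genes in shScr. It stood at 111 and 186 TPM in shScr, at 21.8 and 18.9 in shPkm1 and at 21.6 and 21.3 in shPkm2. The control libraries differed from each other more than for any sensor, and both were above every other library. The log2 fold change was -3.27 in shPkm1 (SE 0.159, adjusted p 3.06e-09) and -3.19 in shPkm2 (SE 0.158, adjusted p 1.34e-09).

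**Figure D2:**
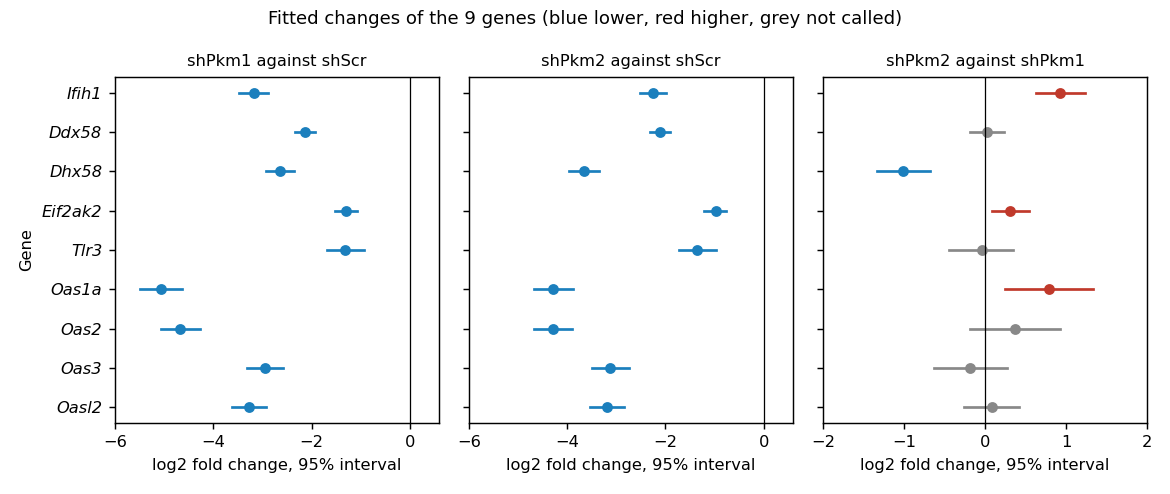
Log2 fold changes with 95% intervals from the fit to all 6 libraries, 1 panel per comparison, 1 row per gene, coloured by call. The 2 panels against shScr lie wholly below 0, from -5.06 for Oas1a in shPkm1 to -0.98 for Eif2ak2 in shPkm2, and the panel between the Pkm hairpin groups scatters around 0 with Ifih1 at 0.93 and Dhx58 at -1.01.

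Unequal falls changed the order of the 9 genes. In shScr the order by TPM was Oasl2, Oas1a, Ddx58, Dhx58, Eif2ak2, Ifih1, Oas2, Oas3 and Tlr3, and only Oas1a and Ddx58 had overlapping ranges. In shPkm1 Oas1a stood sixth and Oas2 last, with Oasl2 overlapping Ddx58 and Oas3 overlapping Oas2. In shPkm2 the overlapping neighbours were Ddx58 with Eif2ak2, Dhx58 with Oas1a, and Oas2 with Oas3, and the range of Eif2ak2 also held both values of Oasl2. Eif2ak2 made up 8.38% and 6.31% of the summed TPM of the 9 genes in shScr, 21.6% and 20.3% in shPkm1 and 25.8% and 23.0% in shPkm2. The share of Oas1a went from 15.8% and 17.4% in shScr to 3.43% and 3.69% in shPkm1 and to 4.95% and 6.53% in shPkm2. These shares are ratios within a library and do not depend on how libraries were scaled to each other.

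The direct comparison of the Pkm hairpin groups asked which of the genes differed between the hairpins. Of the 9 genes 4 were called, against 53.0% of all tested genes, so the 9 genes were not called more often than the table at large. Higher in shPkm2 were Ifih1, Eif2ak2 and Oas1a (25.7% of all tested genes were called higher), and lower was Dhx58 (27.3% were called lower). Ifih1 was higher by 0.93 on the log2 scale (SE 0.140, adjusted p 9.28e-05) and Dhx58 stood at -1.01 (SE 0.151, adjusted p 9.14e-05). Eif2ak2 was at 0.31 (SE 0.107, adjusted p 0.0255) and Oas1a at 0.79 (SE 0.254, adjusted p 0.0189). Both of these calls were lost when 1 library was left out: Eif2ak2 was 0.36 and 0.26 (adjusted p 0.0681 and 0.178) without shPkm1 library 1 or 2 and 0.20 (adjusted p 0.281) without shPkm2 library 1. Oas1a was 0.76 and 0.80 (adjusted p 0.0990 and 0.0850) without shPkm1 library 1 or 2 and 0.56 (adjusted p 0.151) without shPkm2 library 2.

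The other 5 genes were not called between the Pkm hairpin groups, which does not show that they were equal. The 95% interval of the log2 difference was -0.19 to 0.23 for Ddx58 and -0.44 to 0.35 for Tlr3. For Oas2 it was -0.18 to 0.93, for Oas3 -0.63 to 0.27 and for Oasl2 -0.26 to 0.42. The interval was narrowest for Ddx58, with 954 to 1108 counts in these libraries, and widest for Oas2, with 27 to 49. Muscle genes moved between the same groups: 8 of the 9 myoblast and myotube markers were lower in shPkm2 than in shPkm1 (27.3% of all tested genes were), with Myog at -4.41 and Myod1 at -1.33, and Myf5 was higher at 1.48. Their part in the differences of the sensors was not tested.

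The 3 helicases differed from each other in this contrast. The ratio of Ifih1 to Dhx58 in TPM was 0.654 and 0.453 in shScr, 0.492 and 0.329 in shPkm1 and 1.56 and 1.37 in shPkm2. MDA5 transcripts were thus fewer than LGP2 transcripts per length in 4 libraries and more numerous in both libraries of shPkm2. The ratio of Ddx58 to Dhx58 was 1.52 and 1.35 in shScr, 2.21 and 1.89 in shPkm1 and 4.19 and 4.10 in shPkm2. The ratio of Ifih1 to Ddx58 was 0.430 and 0.336 in shScr, 0.373 and 0.335 in shPkm2 and lower in shPkm1, at 0.222 and 0.173. These ratios are given as a description and were not tested.

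**Figure D3:**
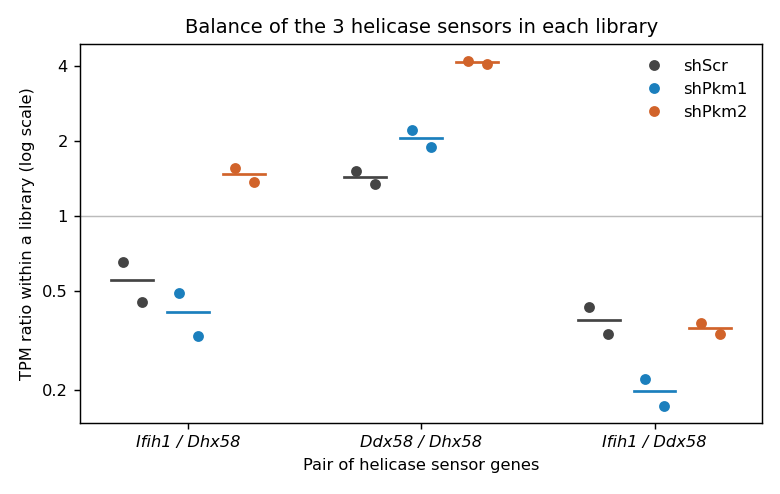
Ratios of TPM between the 3 helicase sensor genes within each library on a log axis, with 1 point per library and a bar at the group mean. The ratio of Ifih1 to Dhx58 lies above 1 in both shPkm2 libraries (1.56 and 1.37) and below 1 in the other 4.

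The fall was also looked at transcript by transcript, in a fit of 33433 transcripts. The table lists 27 transcript models of the 9 genes, and 19 passed the filter. Of these 12 were lower in shPkm1, where 5.36% of all tested transcripts were called lower, and 12 were lower in shPkm2, where it was 9.32%. None was called higher by edgeR (5.47% and 7.91% of all tested transcripts were), and 14 and 13 of the 19 had an unadjusted p under 0.05. The curated Ifih1 transcript had a log2 fold change of -3.39 in shPkm1 and -2.29 in shPkm2, and a predicted Ifih1 model had -2.72 and -2.08. Between the Pkm hairpin groups the curated Ifih1 transcript was higher in shPkm2 at 1.10 (adjusted p 0.0157), while the predicted model was at 0.63 (adjusted p 0.243). The single Dhx58 model was lower at -1.01 (adjusted p 0.0326). Of all tested transcripts 2.87% were called higher and 5.04% lower in that contrast. For Oasl2 all 3 tested models were lower in both comparisons, between -3.55 and -2.56. Tlr3 was divided among 7 models with 0 to 88.4 counts each, and edgeR called 0 of its 4 tested models, with 0 at an unadjusted p under 0.05. The curated Oas1a transcript had 71.5 and 164 counts in shScr, 0 in both shPkm1 libraries, and 0 and 8.63 in shPkm2, and was not called (adjusted p 0.118 and 0.211). How counts were divided among models of 1 gene depends on the authors' estimation.

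Other genes of the pathway were taken from lists and are given in the order of the cascade. Of 8 remaining Oas genes listed, 4 are in the table and 3 were tested, and these 3 were lower in both Pkm hairpin groups (31.4% and 34.2% of all tested genes were). Oas1g had log2 fold changes of -5.15 and -4.92 in shPkm1 and shPkm2, and Oasl1, another synthetase-like gene, -3.78 and -3.42. Oas1c had 50 and 43 counts in shScr, 4 and 2 in shPkm1 and 9 and 10 in shPkm2.

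Among 16 adaptors and signalling genes downstream of the sensors, 8 were lower and 3 higher in shPkm1, with a median of -0.31, where 31.4% of all tested genes were lower and 31.8% higher. In shPkm2 9 were lower and 1 higher, with a median of -0.39, where the shares of all tested genes were 34.2% and 33.9%. The largest fall was in Irf7, the interferon regulatory factor that is itself induced by interferon, at -4.28 and -4.23. Trim25, a ubiquitin ligase that acts on RIG-I, stood at -1.89 and -1.70, and Trim14, an adaptor at MAVS, at -1.72 and -2.41, all called lower. Neither adaptor was called lower: Mavs was at 0.15 (adjusted p 0.238) and 0.05 (adjusted p 0.726), and Ticam1 at 0.33 (adjusted p 0.0126) and 0.15 (adjusted p 0.213). Over the 15 alternatives, which include leaving out each library, 4 to 8 genes were lower and 1 to 5 higher in shPkm1, and 4 to 10 lower and 0 to 6 higher in shPkm2. With limma on log2(TPM + 1) the list had 4 lower and 5 higher in shPkm1 and 4 lower and 6 higher in shPkm2, and Mavs was then called higher in both (0.51 and 0.47), as was Ticam1 (0.68 and 0.57).

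Around PKR 7 genes were listed. They include its protein activator Prkra, its substrate Eif2s1 and the 3 other kinases of eIF2alpha. Of these 7, 2 were higher and 1 lower in shPkm1, and 3 were higher and 1 lower in shPkm2, where 31.8% and 33.9% of all tested genes were called higher, so the counts of higher genes are near the background. Over the alternatives 2 to 4 were higher and 0 to 2 lower in shPkm1, and 3 to 5 higher and 0 to 2 lower in shPkm2. Eif2ak4, the kinase that responds to amino acid shortage, had log2 fold changes of 0.71 and 1.23, and Eif2ak3, the kinase of the endoplasmic reticulum, of 0.63 and 0.63, all called higher. Eif2ak1, the heme-regulated kinase, was at -0.17 in shPkm1 (adjusted p 0.140) and -0.67 in shPkm2 (adjusted p 4.09e-05); with limma on log2(TPM + 1) the latter was -0.21 (adjusted p 0.149). Of the 2 listed enzymes that edit double-stranded RNA, Adar, which has an interferon-inducible form, was lower at -1.63 and -1.31, and Adarb1 was higher at 0.74 and 0.64.

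Downstream of the interferon receptor, the transcription factor genes Stat2 and Irf9 were called lower in both comparisons. Stat2 stood at -2.53 in shPkm1 and -2.46 in shPkm2, and Irf9 at -2.24 and -1.95. Of the receptor's kinases, Jak1 was called higher in both (0.57 and 0.67) and Tyk2 lower in both (-0.41 and -0.72); with limma on log2(TPM + 1) Tyk2 was not called (-0.07 and -0.28). Neither receptor chain was called lower: Ifnar1 rose by 0.28 and 0.67, while Ifnar2 rose by 0.52 in shPkm1 and was at -0.20 in shPkm2 (adjusted p 0.0944). In shPkm1 the rise of Ifnar1 was 0.21 to 0.68 over the alternatives and was not called in all of them. Of 9 listed type I and III interferon genes 3 are in the table. Ifnb1 had 2 and 1 counts in shScr and 0 in the other 4 libraries, Ifna4 had 1 count in shScr library 1 and Ifne had 0 throughout. All 3 genes were at or under 3 counts in every library, too few to compare the groups, and the other 6 were not analysed here.

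**Figure D4:**
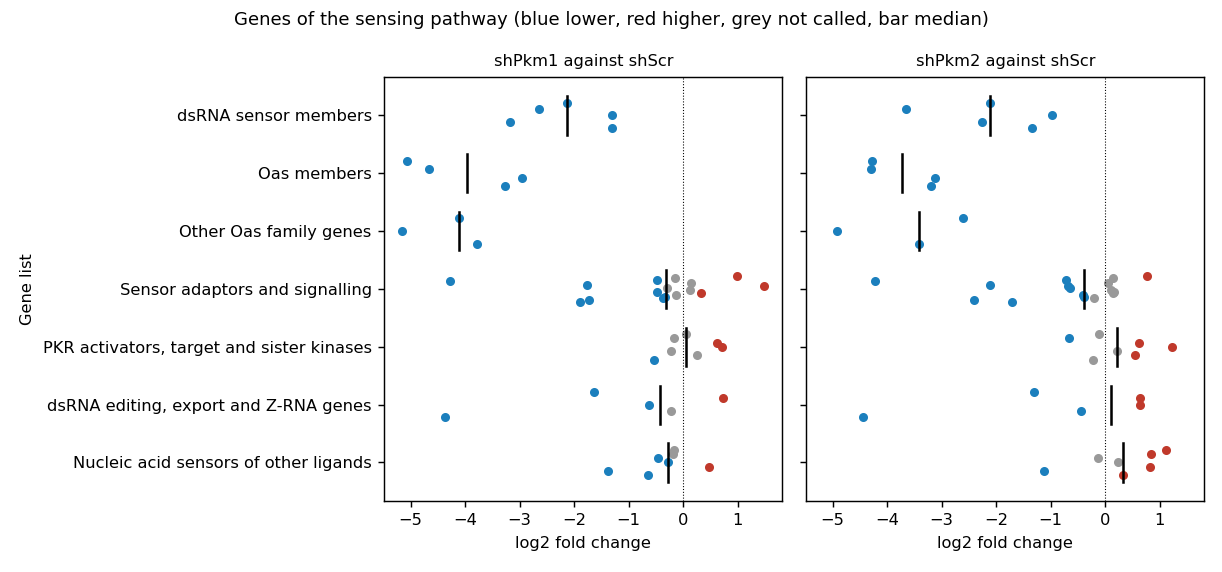
Log2 fold change of each tested gene against shScr by list, 1 panel per Pkm hairpin group, coloured by call, with a bar at the list's median. Ripk3, with 0 and 1 counts in shScr, is left out of the points. Every point of the first 3 lists lies below 0, while the lists of adaptors and PKR partners hold points on both sides.

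The genes whose pattern over the 6 libraries was most like that of the 9 genes were found by distance. For each of 10944 other genes averaging 50 counts or more, log2 CPM (counts scaled to library size) was centred on the shScr mean and compared with the median profile of the 9 genes. Among the nearest were Parp12, Gbp7, Uba7, Parp14, Ifi35, Ifit2 and Ifi44, with root mean square distances of 0.171 to 0.214 on the log2 scale. In the centred profile Parp12 was at -2.88 and -2.92 in shPkm1 and at -2.78 and -2.77 in shPkm2, where the median of the 9 genes was -2.82 and -2.98, then -3.08 and -3.06. Likeness here is over 3 groups of 2 libraries and is a description only.

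Markers of other cell types were low in all groups. Of 8 listed leukocyte markers 4 are in the table and summed to 1.35 and 2.11 TPM in shScr, 4.26 and 3.12 in shPkm1 and 3.06 and 3.74 in shPkm2. Tyrobp was at 0 in every library. Itgam had 30 and 22 counts in shScr, 7 and 1 in shPkm1 and 0 in shPkm2, and was called lower in both. Cd68 was called higher in both (1.02 and 1.22), and Csf1r higher in shPkm1 (1.47) and lower in shPkm2 (-1.81). Of all tested genes 31.8% were called higher and 31.4% lower in shPkm1, and 33.9% and 34.2% in shPkm2. Over the alternatives 0 to 2 of the 3 tested markers were higher and 0 to 1 lower in shPkm1, and 0 to 1 higher and 0 to 2 lower in shPkm2. Their part in the falls of the sensors was not tested. The 4 endothelial markers summed to at most 0.410 TPM and the 4 adipocyte markers to at most 0.110 TPM in a library.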

How the data were processed

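RNA was sequenced in 6 libraries, grouped by sample titles. The authors deposited a table of 57920 RefSeq transcripts; per the file headers each library has estimated counts, FPKM and TPM. The deposited FPKM (scaled to length and library size) and 9 columns of group means by the authors were left unused. The submitters' processing notes list HISAT, StringTie, Bowtie, RSEM, DESeq2 and the build mm10, without roles. Strandedness and read length are not given in the sources used here, so reads of overlapping antisense genes cannot be told apart.

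Estimated counts were summed per NCBI gene and rounded, and 17445 of 17558 genes matched a symbol. The main test was edgeR 4.0.16 in R 4.3.3: filterByExpr (minimum count 10, minimum total 15), TMM scaling, all 6 libraries with 1 coefficient per group, and a two-sided quasi-likelihood F-test whose p-values were adjusted by Benjamini and Hochberg across 12643 genes. SE was taken as the size of the log2 fold change over the square root of F. Fold changes are from this fit; levels are TPM, whose scaling differs from TMM. Genes at 3 counts or fewer were called not detectable, which covers counting error only.

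The members, lists and alternatives were chosen with earlier results of these data known. Named genes are the 9 members, Pkm, Myod1, Myog, genes of the fixed pathway and marker lists, and the 8 nearest in pattern; some of these genes are not reported here. Alternatives were DESeq2 size factors, library totals, no filter, a filter at a mean of 50 counts, DESeq2 1.42.0, limma 3.58.1 on log2(TPM + 1) and on log2(TPM + 0.1), a fit of the compared groups alone, a block on replicate number, and each library left out.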

Additional observations from a re-analysis of the deposited data

How the results depend on the processing

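Each of the 9 genes kept its direction and its call in both comparisons with shScr under all 15 alternatives, 135 values in each comparison. Between the Pkm hairpin groups 127 of 135 values stayed on the same side of the threshold and 8 lost the call, all of Eif2ak2 or Oas1a. With limma on log2(TPM + 1) and log2(TPM + 0.1) Eif2ak2 was 0.34 (adjusted p 0.0559) and 0.36 (adjusted p 0.0529) in that contrast. The number of the 9 genes called higher in shPkm2 than in shPkm1 was 3, and between 1 and 3 with 1 library left out; it was 1 without shPkm1 library 1 and 1 without shPkm1 library 2, where a lone library is assumed to vary like the other groups. Ifih1 stayed between 0.78 and 1.06 and Dhx58 between -1.15 and -0.81 over all alternatives, with adjusted p of at most 0.00460 and 0.00342. Without a composition factor the median of all tested genes shifted to 0.19 in shPkm1 and 0.33 in shPkm2, and calls higher made up 65.8% and 69.3% of all calls against 50.3% and 49.8%; on log2(TPM + 1) they made up 78.1% and 75.7%. Same-numbered libraries did not deviate together (correlations of -0.026, 0.042 and 0.053 across genes), so the numbers were not taken as pairs. With the replicate number as a block 7922, 8566 and 6682 genes were called in the 3 contrasts, against 7984, 8602 and 6703, and no call among the 9 genes changed. Of 1350 recomputed counts of list members 150 moved by over 1.5 times. Depth limits Oas2 most, with 27 to 49 counts in the libraries of the Pkm hairpin groups.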

Other observations

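Sensors of other nucleic acids moved in both directions. Of 10 listed genes 7 were tested; 4 were lower and 1 higher in shPkm1, and 1 was lower and 4 were higher in shPkm2 (over the alternatives 1 to 4 were lower in shPkm1, and 3 to 5 higher in shPkm2). Of all tested genes 31.4% were lower and 31.8% higher in shPkm1, and 34.2% and 33.9% in shPkm2. Cgas, the sensor of cytosolic DNA, stood at 1.92 and 2.10 TPM in shScr, 2.21 and 2.43 in shPkm1 and 5.69 and 4.38 in shPkm2. Its log2 fold change was -0.18 in shPkm1 (adjusted p 0.435) and 0.84 in shPkm2 (adjusted p 9.26e-04). TPM and the fitted values are scaled differently, so the sign of the small shPkm1 difference depends on the scale. Sting1, its downstream adaptor, fell by 0.65 in shPkm1 and rose by 0.33 in shPkm2 (adjusted p 1.65e-04 and 0.0122). With limma on log2(TPM + 1) Sting1 was -0.23 in shPkm1 (adjusted p 0.121). Its rise in shPkm2 was 0.31 to 0.79 over the alternatives and was not called in all of them. Aim2, an inflammasome sensor of DNA, was at -0.16 in shPkm1 (adjusted p 0.544) and rose by 1.11 in shPkm2 (adjusted p 3.17e-04). Between the Pkm hairpin groups 6 of the 7 were higher in shPkm2, against 25.7% of all tested genes, and 4 to 7 over the alternatives. Ifi204, a further DNA sensor, fell in both (-1.37 and -1.13).

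Of 7 listed genes of double-stranded RNA editing, transport and Z-form RNA 6 were tested, with 3 lower and 2 higher in shPkm1 and 3 lower and 3 higher in shPkm2. Over the alternatives 2 to 4 were lower and 1 to 2 higher in shPkm1, and 2 to 3 lower and 2 to 3 higher in shPkm2, where the shares of all tested genes were 31.4% and 31.8%, and 34.2% and 33.9%. Zbp1, the sensor of Z-form RNA, stood at 129 and 196 TPM in shScr, 11.6 and 11.3 in shPkm1 and 11.4 and 10.3 in shPkm2, with log2 fold changes of -4.37 and -4.44 (adjusted p 1.26e-10 and 4.72e-11). Ripk3, the kinase that ZBP1 recruits, had 0 and 1 counts in shScr, 91 and 115 in shPkm1 and 7 and 3 in shPkm2. Mlkl, the effector of that kinase, fell by 0.63 in shPkm1 and rose by 0.64 in shPkm2 (adjusted p 1.29e-04 and 6.45e-05); with limma on log2(TPM + 1) it was -0.23 in shPkm1 (adjusted p 0.102). For Mlkl the Pkm hairpin groups differed by 1.27 (adjusted p 2.12e-07).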
